A study of Homo sapiens with 15 samples.

Results

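The comparison described here is between a pair of MDA-MB-468 derivatives that carry either wildtype EGFR or an EGFR that cannot use its nuclear localization sequence (NLS). It rests on 6 of the 15 libraries of the series, namely the 3 labelled shEGFR-NLS and the 3 labelled shEGFR-WT, and it covers all genes with enough reads to be tested. MDA-MB-468 is a human triple-negative breast cancer cell line with a very high level of EGFR. In both groups endogenous EGFR was knocked down with a lentiviral, IPTG-inducible short hairpin RNA aimed at the untranslated 3′ end of its mRNA, IPTG was kept on, and EGFR fused to GFP was then introduced by transfection. The fusion was wildtype in the WT line. In the ΔNLS line, 2 arginines and 1 lysine of the NLS had been changed to aspartic acid. Both lines received EGF before RNA was taken, at a dose and for a time not given for these libraries in the sources used here. Each genotype is represented by 1 line, so the effect of the mutation, of the making of each line and of the amount of introduced EGFR cannot be told apart. Nothing in the labels says that the 3 libraries of a group came from separate cultures, so the p-values measure only the spread between these libraries, which may be technical. As a further point of reference, the 3 libraries labelled EGF, from unmodified cells given EGF alone, are set beside the lines without a test.

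EGFR is a receptor tyrosine kinase of the cell surface that signals through the ERK, PI3K and STAT pathways when it binds EGF or related ligands. After endocytosis some receptor is carried backwards through the Golgi and the endoplasmic reticulum and enters the nucleus with importin β, which binds clusters of basic residues beside the membrane-spanning segment. In the nucleus EGFR has no DNA-binding domain of its own and is described as acting with partner transcription factors at genes such as CCND1, MYBL2 and AURKA, and as taking part in DNA repair. The comparison asks which transcripts differ when the receptor can or cannot use this route.

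The stretch that was mutated is encoded in exon 17 of EGFR, a gene on the forward strand of chromosome 7 (GRCh38, 55019017 to 55211628). The codons of this stretch, at chr7:55173068-55173106, are shown because they are the only designed difference between the lines. Capitals mark the 8 codons for arginine or lysine, 7 and 1 respectively, which fall into 3 runs.
EGFR NLS codons: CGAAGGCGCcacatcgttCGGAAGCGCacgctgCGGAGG
These are reference bases, and none of the libraries was read at base level here.

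Both labels were first checked against EGFR itself. The ΔNLS libraries held 1711, 1781 and 1766 CPM of EGFR (read counts scaled to the size and composition of each library) and the WT libraries 1445, 1168 and 1467. The groups did not overlap, and EGFR was 1.29-fold higher in ΔNLS (log2 fold change 0.37 ± 0.09 SE, adjusted p = 0.0037, edgeR). The unmodified EGF libraries held 4958, 4340.0 and 5005 CPM, more than any line library. These counts add what remains of the endogenous transcript to the coding part of the introduced one, so they check neither the knockdown nor the mutation alone. WT replicate 2 was the lowest of the 6, and without it the log2 difference was 0.27 (adjusted p = 0.0024).

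Library totals ran from 27086923 to 35900649 counts in the 6 line libraries. Of 9 breast epithelial markers all 9 were tested, 7 called lower and 1 (EGFR) higher in ΔNLS, with summed levels of 15570 to 18660 CPM in ΔNLS and 23440 to 26650 in WT. Among leukocyte markers 2 of 8 were tested: CD14 was called higher (30.1 CPM in WT and 40.15 in ΔNLS), CD52 was not called, and the defining markers PTPRC and CD3E had at most 7 and 2 counts in any library. Among fibroblast markers 1 of 8 was tested, COL1A1, which was called lower (11.9 and 9.55 CPM), and DCN had 0 counts in all 6 libraries. The 5 endothelial markers summed to 15.99 to 17.41 CPM in ΔNLS and 14.46 to 15.45 in WT, with CDH5 called higher. The part of these markers in the results below was not tested. WT replicate 2 stood apart from the other WT libraries: on the principal components of the 500 most variable genes, the first (83.98% of the variance) separated the genotypes and the second (5.899%) placed this library at 10.96 against -5.977 and -6.218 for the other two. With genes put in 5 equal bins by transcript length, its shortest bin lay 0.07 above the WT mean (median, log2 scale) and its longest bin 0.09 below. EGF replicate 2 deviated from its own group in the same way, by 0.10 and -0.09. Whether transcript length has a part in any result below was not tested beyond the values given beside it.

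Across the transcriptome the lines differed widely but mostly by small amounts. Of 15805 genes tested, 6538 (41.4%) passed an adjusted p of 0.05, 3226 higher in ΔNLS (20.4%) and 3312 lower (21.0%). The median of all log2 fold changes was 0.01. Among the genes that passed, 52.1% differed by at most 0.5 on the log2 scale. Only 589 genes (3.73% of those tested) were both called and more than doubled in ΔNLS, and 557 (3.52%) were called and fell by more than 1 on the log2 scale. The values of the ΔNLS and WT libraries did not overlap for 8264 genes (52.3%). Protein-coding genes were called more often (45.0% of 13023) than long noncoding RNA genes (24.4% of 1916). The classes were not matched for expression level, and its part in this difference was not tested. Without WT replicate 2 the number of genes called was 6559.

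**Figure D1:**
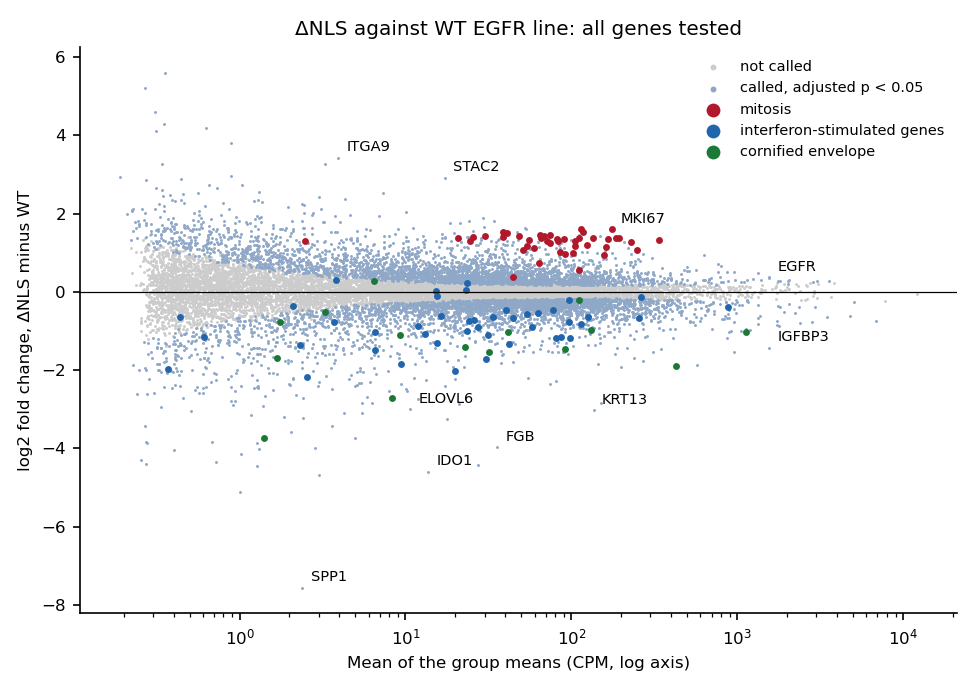
Log2 fold change of ΔNLS over WT (vertical axis) against the mean of the 2 group means in CPM (horizontal log axis) for the 15805 genes tested; grey points were not called, pale blue points were called at an adjusted p of 0.05, and larger points are members of 3 gene lists. The mitosis genes (red) form a band above 0, and the interferon-stimulated (blue) and cornified envelope genes (green) lie mostly below it.

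Cell division genes were higher in ΔNLS. All 44 tested members of a mitosis list (spindle motors, kinetochore and checkpoint proteins, mitotic kinases and cyclins) were called higher in ΔNLS, with a median log2 difference of 1.32 and a range of 0.38 to 1.61. Under the other settings tried, 43 or 44 of them stayed above the threshold. Their summed level was 5715, 6137 and 6477 CPM in ΔNLS and 2678, 2415 and 2613 CPM in WT. The EGF libraries, at 4507, 4642 and 4522 CPM, lay between the lines. In RNA from whole cultures, a change in the share of cells in a phase or state and a change in RNA per cell cannot be told apart. The 1 listed gene without a test was NUSAP1, which binds spindle microtubules.

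KIF20A, a kinesin of the central spindle and of cytokinesis, stood at 164, 165 and 191 CPM in ΔNLS and at 61.0, 53.6 and 55.5 in WT. It was 3.05-fold higher (log2 1.61 ± 0.08 SE, adjusted p = 3e-10). MKI67, which coats mitotic chromosomes and marks cycling cells, stood at 238, 278 and 279.9 CPM against 105, 50.5 and 106. WT replicate 2 enlarged this gap: the log2 difference was 1.60 ± 0.28 SE with that library and 1.33 without it. CENPF, a kinetochore protein with a long transcript, showed the same low value in that library, 40.4 CPM against 71.5 and 69.4, and the same drop of the log2 difference, from 1.54 to 1.32. EGF replicate 2 was likewise the lowest of its group for both genes. Both remained called without WT replicate 2. By absolute level, the 6 called genes that gained most CPM among those that more than doubled were TOP2A (482 against 192 CPM), the DNA topoisomerase that untangles sister chromatids, TPX2 (326 against 134), which activates Aurora A on the spindle, MKI67, ANLN (339 against 161), a scaffold of the contractile ring, TK1 (295 against 121), thymidine kinase, and MYBL2 (279.5 against 107). All 6 belong to the mitosis list or the DNA replication list.

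DNA replication genes rose less. Of 48 tested, 30 were called higher and 1 lower, with a median log2 difference of 0.32. TK1 (1.28), ORC6 (0.955), a subunit of the origin recognition complex, and RRM2 (0.95), the regulated subunit of ribonucleotide reductase, showed the largest rises. RRM2 was at 831, 824 and 836 CPM in ΔNLS and at 434, 423 and 430.3 in WT. The replicative helicase did not move as a block: MCM6 fell (log2 -0.30 ± 0.07 SE, adjusted p = 0.0041), and MCM3 did not pass (0.15, adjusted p = 0.09). Genes for repair of double-strand breaks and crosslinks followed the same direction, 20 of 32 called higher and 1 lower with a median of 0.38. XRCC2 (1.01), of homologous recombination, the helicase BLM (0.95) and RAD54L (0.94), a motor protein of recombination, led this list, and the checkpoint kinase ATR fell by 0.31 on the log2 scale. Here the EGF libraries did not lie between the lines. Summed replication genes reached 5186 to 5392 CPM in EGF, below the 6891 to 6944 CPM of WT, while ΔNLS held 8557 to 9039.

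Regulators of G1, the phase before DNA synthesis, were split, 4 called higher and 3 lower of 14 (5 and 5 without ΔNLS replicate 2). That is a share called of 50.0%, beside 41.4% of all genes. CCND1, cyclin D1, a driver of G1 and a reported nuclear EGFR target, was at 93.8, 98.1 and 93.2 CPM in ΔNLS and at 186, 150.5 and 203 in WT. It fell by 0.92 on the log2 scale (adjusted p = 6.1e-07). The CDK4 and CDK6 inhibitors divided: CDKN2D (1.33) and CDKN2C (1.01) rose, and CDKN2B (-0.91) and CDKN2A (-0.52) fell. CCND3, the most abundant member by CPM not called, had a log2 difference of 0.18 (adjusted p = 0.06).

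Of the 7 reported nuclear EGFR targets, 4 were tested and they did not share a direction. Besides CCND1, which fell, MYBL2, a transcription factor of late S phase and G2, rose 2.6-fold, from 113, 100.5 and 109 CPM in WT to 299.8, 257 and 281 in ΔNLS. AURKA, the spindle kinase Aurora A, rose 2.47-fold, from 61.7, 59.7 and 60.1 to 142, 149 and 158 CPM. Both MYBL2 and AURKA are also members of the mitosis list, all of which rose. MYC did not pass the test (log2 0.12 ± 0.07 SE, adjusted p = 0.2). NOS2, PTGS2 and ABCG2 had too few counts to be tested, NOS2 having 1 count over the 6 libraries.

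**Figure D2:**
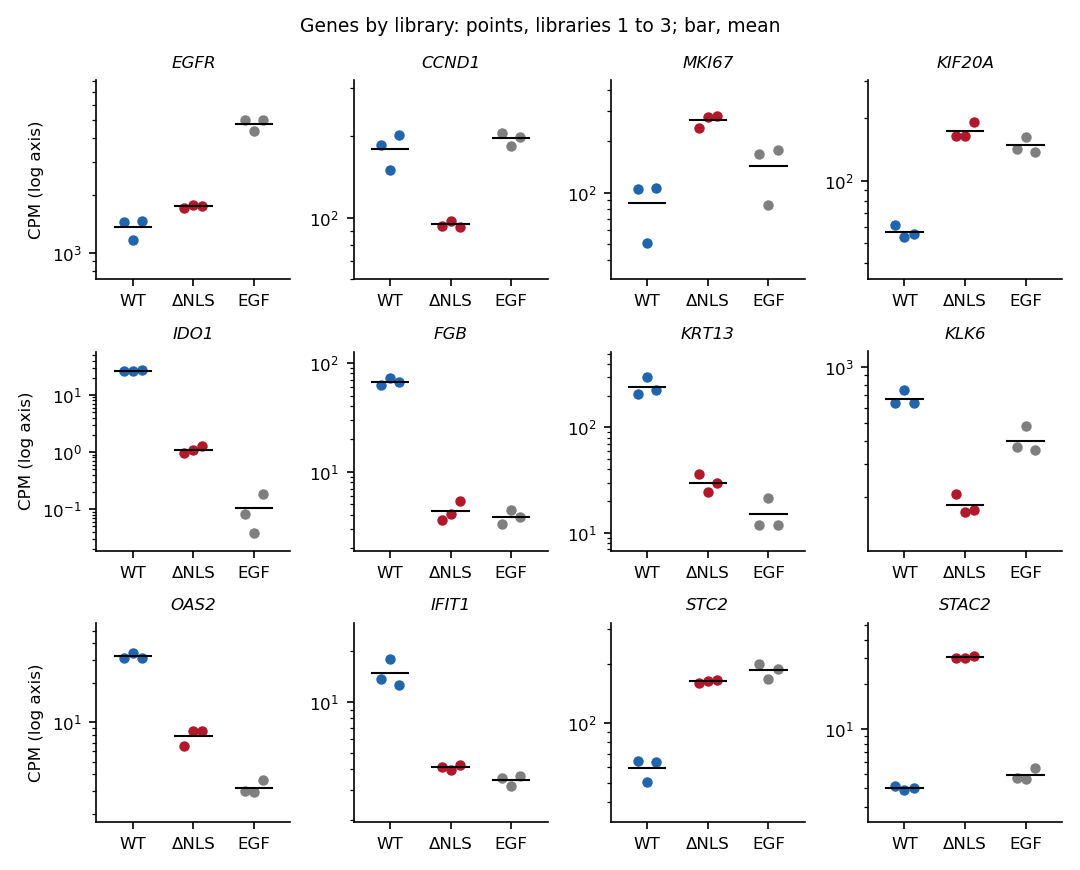
CPM (log axis, each panel with its own range) of 12 genes in WT, ΔNLS and EGF libraries; each point is 1 library and the bar is the mean of 3. WT and ΔNLS do not overlap in any panel; the EGF points lie on the ΔNLS side for FGB and IFIT1 and on the WT side for CCND1 and STAC2.

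The interferon-stimulated genes moved the other way. These antiviral genes are switched on when interferon, or a virus sensor that induces it, activates STAT complexes at the interferon-stimulated response element (ISRE). Of 44 tested, 36 were called lower in ΔNLS and 1 higher, with a median log2 difference of -0.77. OAS2, which makes the second messenger that activates RNase L, was at 6.58, 8.55 and 8.53 CPM in ΔNLS and at 31.0, 33.7 and 31.0 in WT, a 4.06-fold difference (log2 -2.02 ± 0.11 SE, adjusted p = 5.3e-10). IFIT1, which binds RNA lacking the host cap mark, was at 4.12, 3.93 and 4.25 against 13.6, 18.0 and 12.7 CPM (log2 -1.85). IFI27 had the largest fall of the list (log2 -2.19), from a mean of 4.18 to 0.919 CPM. The exception that rose was USP18, a negative regulator of interferon receptor signalling, by 0.23 on the log2 scale, and 10 of 16 alternative settings lost that call. IFITM3 did not pass (-0.12, adjusted p = 0.25).

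The promoters of 2 interferon-stimulated and 2 mitosis genes that the text names are shown because they carry the short sequence by which each group is usually recognised. They are RefSeq promoters of build GRCh38.p14, 250 bases before to 50 after the transcription start, written on the gene's own strand. Capitals mark matches, on either strand, to the ISRE core, TTTC repeated after a gap of 2 bases of any kind, in the first pair and to the cell-cycle homology region (CHR) core TTTGAA, to which the MuvB complex binds, in the second. No printed match overlaps another.
IFI27, chr14:94110486-94110785, forward strand: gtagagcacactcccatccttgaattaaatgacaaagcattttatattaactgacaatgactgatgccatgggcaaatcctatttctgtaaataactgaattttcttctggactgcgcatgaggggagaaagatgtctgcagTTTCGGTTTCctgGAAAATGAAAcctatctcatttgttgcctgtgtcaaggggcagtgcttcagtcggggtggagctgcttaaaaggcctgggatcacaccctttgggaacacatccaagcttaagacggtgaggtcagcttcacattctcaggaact
IFIT1, chr10:89392373-89392672, forward strand: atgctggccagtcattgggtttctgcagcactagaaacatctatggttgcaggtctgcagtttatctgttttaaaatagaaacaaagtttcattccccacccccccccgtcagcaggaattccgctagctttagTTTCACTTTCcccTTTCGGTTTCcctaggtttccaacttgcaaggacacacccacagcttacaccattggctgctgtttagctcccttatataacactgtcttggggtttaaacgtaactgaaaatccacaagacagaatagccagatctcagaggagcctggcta
MKI67, chr10:128126374-128126673, reverse strand: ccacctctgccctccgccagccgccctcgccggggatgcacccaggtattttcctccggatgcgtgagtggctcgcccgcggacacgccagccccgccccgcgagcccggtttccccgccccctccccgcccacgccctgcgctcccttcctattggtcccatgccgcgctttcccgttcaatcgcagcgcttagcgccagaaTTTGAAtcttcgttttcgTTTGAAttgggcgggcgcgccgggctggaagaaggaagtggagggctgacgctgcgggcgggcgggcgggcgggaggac
CENPF, chr1:214602945-214603244, forward strand: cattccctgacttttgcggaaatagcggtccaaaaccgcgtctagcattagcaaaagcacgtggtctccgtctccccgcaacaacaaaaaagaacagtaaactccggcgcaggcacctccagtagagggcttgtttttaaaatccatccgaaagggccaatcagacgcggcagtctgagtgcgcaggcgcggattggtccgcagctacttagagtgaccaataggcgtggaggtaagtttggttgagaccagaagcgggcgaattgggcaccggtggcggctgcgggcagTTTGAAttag
Of the 34 tested interferon-stimulated genes with an entry in the promoter table, 22 (64.7%) held the ISRE core, against 2.7% of the 11465 promoters of tested genes and 3.7% of all 27195. Of 38 mitosis genes with an entry, 26 (68.4%) held the CHR core, against 9.8% of tested genes and 15.4% of all. The lists were made of known members of these groups, so a high share was already likely by their choice. The KIF20A promoter window held no CHR match.

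Upstream of these genes the interferon receptors and the JAK and STAT kinases and factors varied less, 5 lower and 1 higher of 21 with a median of -0.05. Their share called was 28.6%, beside 41.4% of all genes. STAT6 fell from 83.3, 80.8 and 81.6 CPM in WT to 55.1, 55.8 and 55.9 in ΔNLS (log2 -0.56). TYK2, a receptor-bound kinase, rose by 0.44, and STAT3 did not pass (0.10, adjusted p = 0.27). The 6 class I HLA genes all fell (median -0.83), and with them B2M, their shared light chain, from 1357, 1732 and 1404 to 768, 779 and 772 CPM. Of 17 genes for loading peptides onto class I molecules, B2M included, 12 fell and none was called higher, a share called of 70.6%. Under the other settings tried, 8 to 12 were called lower and at most 1 higher. Among ligands of the NK cell receptor NKG2D, 5 of 7 rose, ULBP1 by 0.999 and MICB by 0.71, and 3 were called without ΔNLS replicate 3.

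Secreted immune signals were mostly lower. Of 22 cytokine and chemokine genes tested, 13 fell and 2 rose, with a median of -0.53. The median was -0.15 without a filter on low counts and -0.70 with at least 10 counts in every library, and the count of rises was 4 without WT replicate 3. IL18, an inflammasome-processed cytokine, was at 44.1, 45.0 and 48.3 CPM in ΔNLS and at 122, 148 and 129 in WT (log2 -1.54). The interferon-induced chemokines CXCL11 (-2.42) and CXCL10 (-2.08) fell from low levels, 1.72 and 2.44 CPM in WT. TGFB1 rose by 0.67, from 21.8, 20.2 and 21.5 to 37.4, 30.4 and 33.4 CPM.

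Among the 12 largest falls of all genes, 3 were of genes with known roles in immune defence, chosen for mention after their values were seen. IDO1, the tryptophan-degrading enzyme induced by interferon γ, was at 0.965, 1.07 and 1.26 CPM in ΔNLS and at 25.9, 25.8 and 27.6 in WT, a 24.2-fold difference (log2 -4.60 ± 0.13 SE, adjusted p = 1.1e-12). AIM2, a sensor of cytosolic DNA, and GBP5, an interferon-induced GTPase, fell by 4.02 and 3.87 on the log2 scale from levels under 3 CPM. The EGF libraries held 0.187 CPM of IDO1 or less, below both lines.

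The other large falls were of genes with varied roles. FGB and FGG, which encode 2 chains of fibrinogen and lie close together on chromosome 4 (GRCh38, 154563011 to 154572807 and 154604134 to 154612967), fell together. FGB was at 3.57, 4.08 and 5.40 CPM in ΔNLS and at 62.0, 72.6 and 66.7 in WT (log2 -3.96 ± 0.12 SE), and FGG at 2.19, 2.98 and 2.05 against 47.7, 60.9 and 48.5 (-4.44). In EGF libraries both were at 4.42 CPM or less, near the ΔNLS values. SPP1, osteopontin, was at most 0.036 CPM in ΔNLS, 1 count or none, and at 3.36, 6.19 and 4.70 in WT. Set against a floor of 3 counts per library it was at least 49.2-fold lower in ΔNLS. PARP8, a mono-ADP-ribosyltransferase, was at least 20.3-fold lower on the same basis. SCGB2A2, mammaglobin, fell from 5.84, 5.55 and 6.13 to 0.175, 0.189 and 0.324 CPM. The remaining members of the 12 largest falls were PRSS3 (log2 -4.46), a trypsinogen that shares sequence with other trypsin genes, the adhesion protein FLRT2 (-4.13), the urothelial plaque protein UPK1B (-3.99) and FLG (-3.75).

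Keratins, the intermediate filaments of epithelia, were lower in 16 and higher in 1 of 21 tested, with a median of -0.67. Their summed level was 18800, 15210 and 16230 CPM in ΔNLS and 25760, 29550 and 25560 in WT. KRT13, of stratified non-cornified epithelium, was at 35.8, 24.4 and 29.5 CPM in ΔNLS and at 206, 297 and 224 in WT, 8.09-fold apart. KRT6A, an injury-induced keratin, fell from 831, 945 and 909.9 to 302, 217 and 215 CPM. Its near copy KRT6B did not pass (-0.22, adjusted p = 0.12), and reads shared between the KRT6 genes make their split uncertain. KRT75, a hair follicle keratin, rose from 0.671, 0.968 and 1.34 to 2.66, 2.42 and 1.94 CPM.

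The cornified envelope is the protein shell of terminally differentiated keratinocytes. Its list, which also holds secreted kallikrein proteases and cadherins of desmosomes, had the lowest median of the 36 lists, -1.12. Of 15 members tested, 14 were called lower. FLG, filaggrin, was at 0.205, 0.220 and 0.144 CPM against 2.92, 2.26 and 2.69. SPRR3, a cross-linked envelope protein, was at 2.28, 1.54 and 2.81 against 13.2, 15.8 and 14.1 CPM. KLK6, a secreted kallikrein protease, fell 3.71-fold, from 636, 746 and 636 to 207, 166 and 171 CPM. CNFN was the member not called (0.28, adjusted p = 0.13), and 12 listed genes had too few counts to test.

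The S100 calcium-binding proteins, many of which lie beside the envelope genes on chromosome 1, were lower in 13 and higher in 1 of 16. S100P fell by 1.01 on the log2 scale and S100A16 by 0.67, S100A3 rose by 0.64, and S100A7, the most abundant by CPM of those not called, had -0.17 (adjusted p = 0.12). The transcription factors of breast epithelial lineage leaned the same way, 11 lower and 4 higher of 19. TP63, the master factor of basal and stratified epithelium, was at 3.71, 4.08 and 4.10 CPM in ΔNLS and at 9.97, 6.77 and 8.67 in WT (-1.10), KLF5 fell by 0.87 and EHF by 0.78. ID4 (1.06), ESR1 (0.75) and TFAP2C (0.62) rose.

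**Figure D3:**
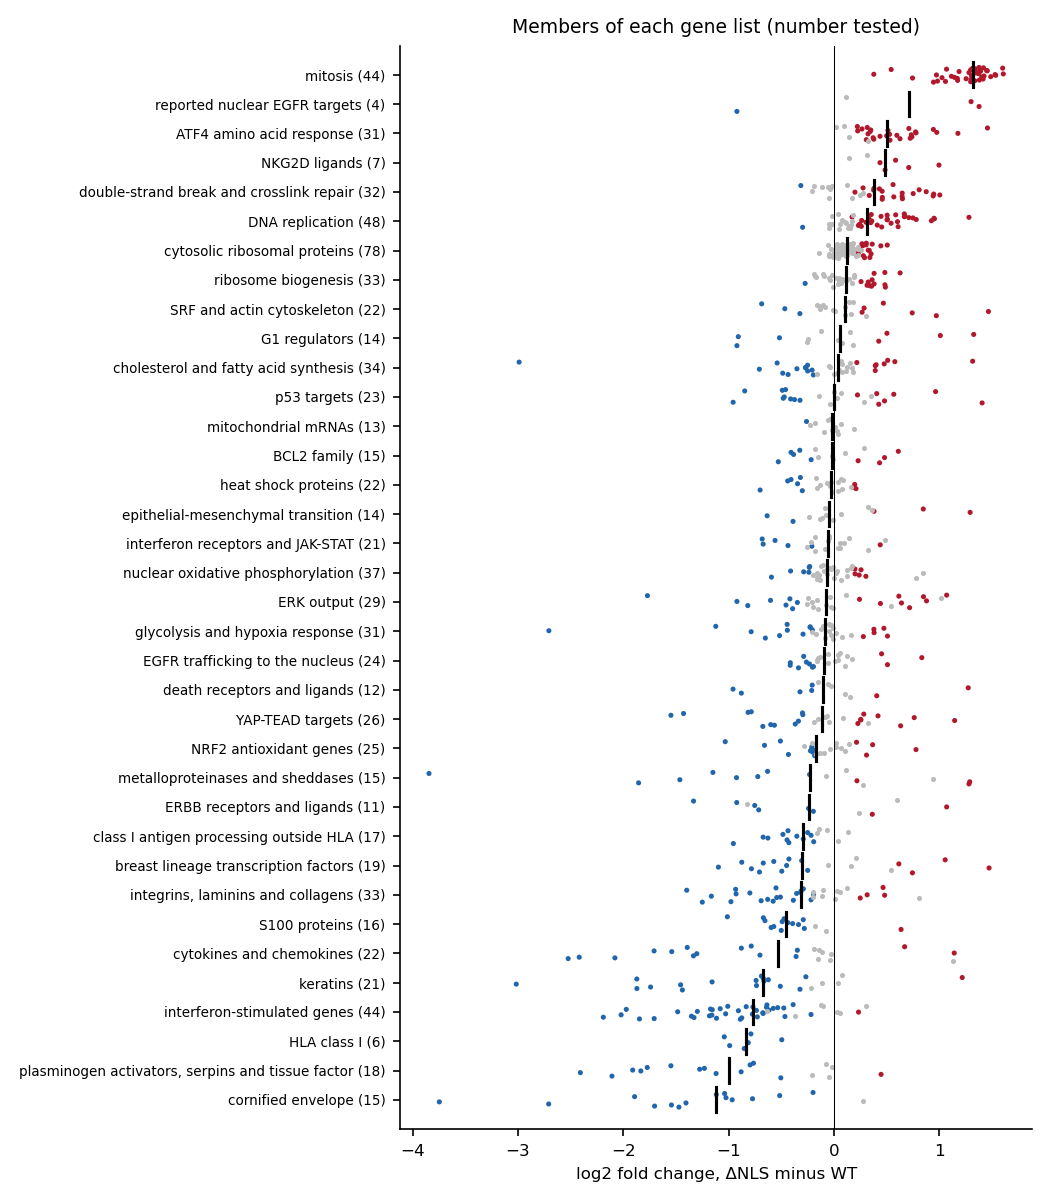
Log2 fold change of ΔNLS over WT for each tested member of 36 gene lists, ordered by the list median (black bar), with the number tested in brackets; red and blue points were called higher and lower and grey points were not called. The mitosis list lies wholly to the right of 0, the cornified envelope list has the lowest median, and lists such as heat shock proteins and p53 targets have medians near 0.

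Extracellular proteolysis and adhesion genes were lower as well. Of 18 plasminogen activator, serpin and tissue factor genes, 13 fell and 1 rose (median -0.999). SERPINB2, the intracellular inhibitor of urokinase, was at 0.994, 0.628 and 1.22 CPM in ΔNLS against 4.10, 5.87 and 5.04 in WT (-2.41). PLAT, tissue plasminogen activator, fell by 2.11 on the log2 scale and SERPINB5, maspin, by 1.91. F3, tissue factor, which starts coagulation, fell from 128, 99.8 and 142 to 40.3, 43.6 and 43.0 CPM. SERPINH1, a collagen chaperone, did not pass (-0.01, adjusted p = 0.91).

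Integrin, laminin and collagen chains were called lower in 20 and higher in 4 of 33 tested, with a median of -0.31. The count of falls was 12 without ΔNLS replicate 3 and 13 without WT replicate 1. LAMA3, the α chain of laminin-332 that anchors basal cells to their basement membrane, fell from 38.1, 39.7 and 43.7 to 16.5, 19.2 and 18.6 CPM. ITGA2, the collagen-binding integrin α2, fell by 0.98 on the log2 scale and COL5A1 by 1.40. LAMA5 (0.48) and COL18A1 (0.47) rose. ITGA9, integrin α9, which was not on that list, had the largest rise of all genes named by the rule: 7.19, 7.38 and 6.98 CPM in ΔNLS against 0.940, 0.581 and 0.504 in WT, 10.7-fold apart (log2 3.43 ± 0.20 SE, adjusted p = 1.3e-09).

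A list of metalloproteinases, ADAM proteases and TIMP inhibitors split, 3 higher and 8 lower of 15. MMP14, a membrane-bound collagenase activator, rose from 11.5, 10.2 and 11.1 to 29.1, 24.1 and 27.0 CPM, and MMP7, matrilysin, from 24.6, 29.9 and 22.9 to 67.1, 60.0 and 61.0. TIMP1, an inhibitor of metalloproteinases that is counted in this list, fell from 146, 171 and 142 to 78.6, 60.1 and 68.4 CPM. ADAM9, a membrane sheddase, fell by 0.92 on the log2 scale.

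Other large rises came from genes at low level with varied roles. STAC2, a regulator of voltage-gated calcium channels, was at 30.0, 30.2 and 31.1 CPM in ΔNLS and at 4.16, 3.94 and 4.0 in WT (log2 2.92 ± 0.10 SE, adjusted p = 3.3e-12). BRINP2 rose by 3.27 on the log2 scale, COL26A1, a collagen, by 2.73, the mitochondrial carrier SLC25A30 by 2.56, the aggrecanase ADAMTS4 by 2.54 and the neuropeptide gene ADCYAP1 by 2.38. FTHL17 (2.34), PDLIM3 (2.33), CHST9 (2.30), FXYD6 (2.23) and PIK3CD (2.23), a catalytic subunit of PI3K, completed the 12, and their means in ΔNLS were between 2.05 and 4.05 CPM. The EGF libraries were near WT for STAC2 (4.61 to 5.49 CPM) and ADAMTS4 (0.845 to 1.90) and near ΔNLS for BRINP2 (6.13 to 7.61).

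Among called genes that fell by more than 1 on the log2 scale, the largest losses of CPM included those of IGFBP3, CLU, KRT6A, KLK5 and CD59. IGFBP3, which binds insulin-like growth factors, was at 879, 795 and 860.1 CPM in ΔNLS and at 2121, 2327 and 2366 in WT (log2 -1.43). CLU, a secreted chaperone, fell by 1.55 on the log2 scale, CD59, which blocks the complement attack complex, by 1.19 and the protease KLK5 by 1.02.

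The amino acid response driven by the transcription factor ATF4, which cells raise when amino acids or protein folding run short, was higher in ΔNLS. Of 31 tested, 27 were called higher and none lower, with a median of 0.50. STC2, a secreted glycoprotein, was at 160.4, 164 and 167 CPM against 64.3, 50.5 and 63.6 (log2 1.46 ± 0.09 SE, adjusted p = 1.7e-09). CBS, of cysteine synthesis, rose by 1.18 and SLC7A5, which imports large neutral amino acids, by 0.98, from 193, 174 and 179 to 378, 340.0 and 359 CPM. SARS1, a tRNA synthetase, did not pass (0.10, adjusted p = 0.31). The heat shock list was called about as often as all genes (40.9% against 41.4%), 3 higher and 6 lower of 22 (median -0.03). HSPA5 and DNAJB9, chaperones of the endoplasmic reticulum, fell by 0.70 and 0.44 on the log2 scale, and the rises of HSP90AB1 (0.20) and HSPD1 (0.19) were lost under 10 and 9 of 16 alternatives. Without ΔNLS replicate 3 or WT replicate 3 the list had no rise called, and without ΔNLS replicate 1 or WT replicate 1 it had 1.

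Genes of growth factor signalling were divided. Of 29 ERK output genes, 8 were called higher and 8 lower (median -0.08), a share of 55.2% beside 41.4% of all genes. HBEGF, an EGFR ligand and itself a target of ERK, was at 8.07, 8.48 and 8.56 CPM against 4.10, 2.61 and 5.15. FOSL1, an AP-1 subunit, rose by 0.88 and IER3 by 0.85. EMP1, a membrane protein, fell from 404, 444 and 406 to 128, 119 and 121 CPM, and the ERK phosphatase DUSP4 fell by 0.82 on the log2 scale. Among receptors and ligands of the ERBB family, 2 rose (EGFR and HBEGF) and 6 fell of 11. The ligands EPGN (-1.33), BTC (-0.92) and AREG (-0.75) fell from levels under 7 CPM. ERBB3 fell by 0.19, a call lost under 6 of 16 alternatives, ERBB2 did not pass (0.24, adjusted p = 0.058), and ERBB4 had at most 2 counts in any library.

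Genes for carrying EGFR to the nucleus were called about as often as all genes (45.8% against 41.4%), 3 higher and 8 lower of 24. The split was 7 and 7 with GC and length offsets, and 5 were lower without ΔNLS replicate 3. SNX1, a sorting nexin of the retromer route, was at 50.6, 47.9 and 51.7 CPM in ΔNLS and at 63.4, 63.3 and 62.7 in WT (log2 -0.34 ± 0.07 SE, adjusted p = 0.001). SNX2 lay at the threshold (-0.20, adjusted p = 0.0495), and 13 of 16 alternatives lost its call. SNX6 and the retromer subunit VPS29 each fell by 0.41. KPNA2, an importin α that also varies with the cell cycle, rose from 119, 116 and 115 to 208, 195 and 222 CPM. SEC61G, of the translocon, did not pass (0.04, adjusted p = 0.71).

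Most lists of metabolism and redox balance were called in both directions. Cholesterol and fatty acid genes were 8 higher and 12 lower of 34 (median 0.04), with opposite changes in the handling of fatty acids: ELOVL6, which elongates palmitate, fell from 21.0, 17.5 and 18.5 to 2.25, 2.61 and 2.30 CPM (log2 -2.99), SCD, which makes monounsaturated fat, fell by 0.54, and the desaturases FADS2 (1.32) and FADS1 (0.58) rose. Glycolysis and hypoxia genes were 5 higher and 11 lower of 31 (median -0.08), with SLC2A3, a glucose transporter, falling by 2.71, EGLN3, an oxygen sensor, by 1.12 and LDHA, lactate dehydrogenase, by 0.79. NRF2 antioxidant genes were 4 higher and 10 lower of 25 (median -0.17), the cystine importer SLC7A11 rising by 0.78 and the exporter ABCC2 falling by 1.03. Nuclear genes of oxidative phosphorylation (5 higher and 6 lower of 37) and mitochondrial mRNAs (1 lower of 13) had medians of -0.06 and -0.02. Their shares called were 29.7% and 7.69%, beside 41.4% of all genes. For the lipid, glycolysis and NRF2 lists the shares were 58.8%, 51.6% and 56.0%. Without ΔNLS replicate 3 the splits were 7 higher and 6 lower for lipid genes, 4 and 7 for glycolysis, 3 and 5 for NRF2 genes and 2 and 2 for nuclear oxidative phosphorylation. NRF2 genes were also 3 and 5 without ΔNLS replicate 2 or WT replicate 1, and nuclear oxidative phosphorylation ran from 2 and 7 without WT replicate 3 to 8 and 3 without WT replicate 2.

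Actin genes under SRF were called as often as all genes (40.9% against 41.4%), 6 higher and 3 lower of 22, and with GC and length offsets 4 were higher and 8 lower. TPM2, tropomyosin 2, had the largest rise, at 26.0, 23 and 24.6 CPM against 9.63, 7.26 and 9.68. A YAP-TEAD list, which holds targets and also the YAP and TEAD factors themselves, had 8 higher and 11 lower of 26. It had 4 higher without ΔNLS replicate 3 and a split of 6 to 13 with GC and length offsets. TEAD2 (1.15), 1 of the factors, NUAK2 (0.76) and CCN2 (0.64) rose, and F3, IGFBP3 and NT5E (-0.81) fell. Of 14 genes of epithelial-mesenchymal transition 3 rose and 2 fell, a share called of 35.7% beside 41.4% of all genes. VIM, vimentin, rose from 20.6, 18.6 and 17.9 to 51.8, 47.1 and 40.8 CPM, and CDH1, E-cadherin, fell by 0.39 on the log2 scale. EPCAM did not pass (-0.13, adjusted p = 0.18).

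Cell death genes were likewise divided. The BCL2 family had 4 higher and 5 lower of 15 (3 and 3 without ΔNLS replicate 3): BMF (0.61), BAX (0.48) and BCL2 (0.435) rose, and BCL2L1 (-0.53), BIK (-0.41) and BID (-0.38) fell. Death receptors and ligands had 2 higher and 5 lower of 12, and 2 were lower with a replicate block, with all 15 libraries or without any 1 of ΔNLS replicates 2 and 3 and WT replicates 1 and 3. TNFSF10, which encodes TRAIL, fell from 109, 117 and 103 to 55.1, 63.6 and 60.1 CPM, TNFRSF21 fell by 0.96, and TNFRSF10B, a TRAIL receptor, rose by 0.41. The p53 targets had 7 higher and 9 lower of 23 (6 and 5 without ΔNLS replicate 1), GDF15 (1.41) and POLH (0.97) rising and TP53I3 (-0.96) falling. Shares called were 60.0%, 58.3% and 69.6% for these lists in turn, beside 41.4% of all genes.

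Ribosome biogenesis genes were called higher in 12 and lower in 1 of 33, with a median of 0.11, NOP56 and DKC1 each rising by 0.49. Their share called was 39.4%, beside 41.4% of all genes (20.4% higher and 21.0% lower). Of 78 cytosolic ribosomal proteins, 16 were called higher and none lower (median 0.13), a share of 20.5% beside 20.4% of all genes. The count was 47 without WT replicate 2 and between 8 and 11 without ΔNLS replicate 1 or 3 or WT replicate 1 or 3. RPS21 (0.51) and RPS27 (0.36) were among those called, and many of these genes share reads with processed copies.

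**Figure D4:**
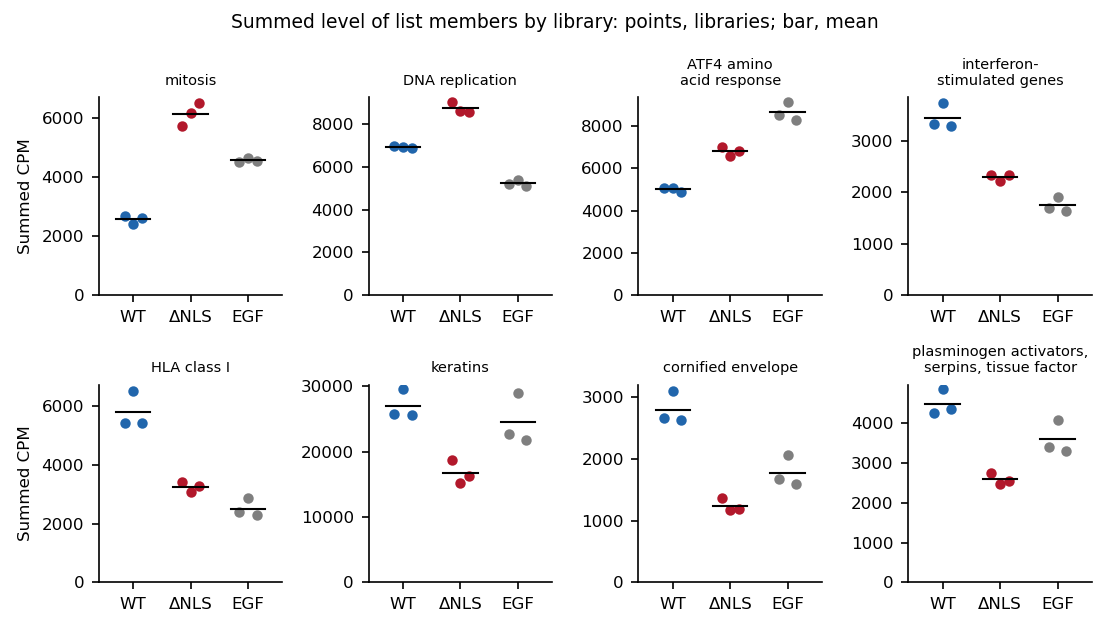
Summed CPM of the tested members of 8 lists (vertical axis from 0) in WT, ΔNLS and EGF libraries; each point is 1 library and the bar is the mean of 3. EGF lies between the lines for mitosis, keratins, cornified envelope and the plasminogen activator list, beyond ΔNLS for interferon-stimulated, HLA class I and ATF4 genes, and below both lines for DNA replication.

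Set beside unmodified cells given EGF, the lines took unequal positions. Of the 6538 genes called between the lines, the mean of the EGF libraries lay nearer to WT for 35.7% on the log2 CPM scale, and the 3 EGF libraries taken singly gave 33.7%, 42.8% and 33.1%. For the 557 genes that fell by more than 1 on the log2 scale the share nearer to WT was 15.3%, and for 333 of them the EGF mean lay beyond that of ΔNLS. For the 589 that rose by more than 1 it was 40.2%. Among called interferon-stimulated genes 35 of 37 were nearer to ΔNLS in EGF libraries, as were 6 of 6 HLA class I genes and 27 of 27 ATF4 genes. DNA replication genes (30 of 31) and repair genes (21 of 21) were nearer to WT. The EGF libraries come from cells without knockdown or introduced EGFR, so that difference and any difference in culture or handling cannot be told apart here.

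The differences were not evenly spread over the genome. By chromosome, the median log2 difference ran from -0.14 on chromosome X (33.7% of 510 genes called lower, 13.7% higher) and chromosome 4 (-0.14) to 0.15 on chromosome 20 (36.4% of 398 called higher, 11.8% lower). Over 257 windows of 10 Mb with at least 20 tested genes, the medians ran from -0.33 to 0.36, and 23 windows lay beyond 0.25 in either direction. The highest was at the end of chromosome 20 (60000001 to 70000000), where 33 of 54 genes were called higher and 2 lower. Base composition moved with these medians. With genes put in 5 equal bins by GC content, the lowest bin had a median log2 difference of -0.13 and the highest bin 0.14. Libraries of the same line also differed along GC. Relative to the ΔNLS mean, the lowest bin lay at -0.09 in ΔNLS replicate 1 and 0.08 in replicate 2. The highest bin lay at 0.07 and -0.07. With offsets for GC and length, an alternative chosen after the data were seen, 8 windows were beyond 0.25 and the chromosome 20 and X medians were 0.11 and -0.11. Copy number in the lines was not measured, and its part in these medians was not tested.

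**Figure D5:**
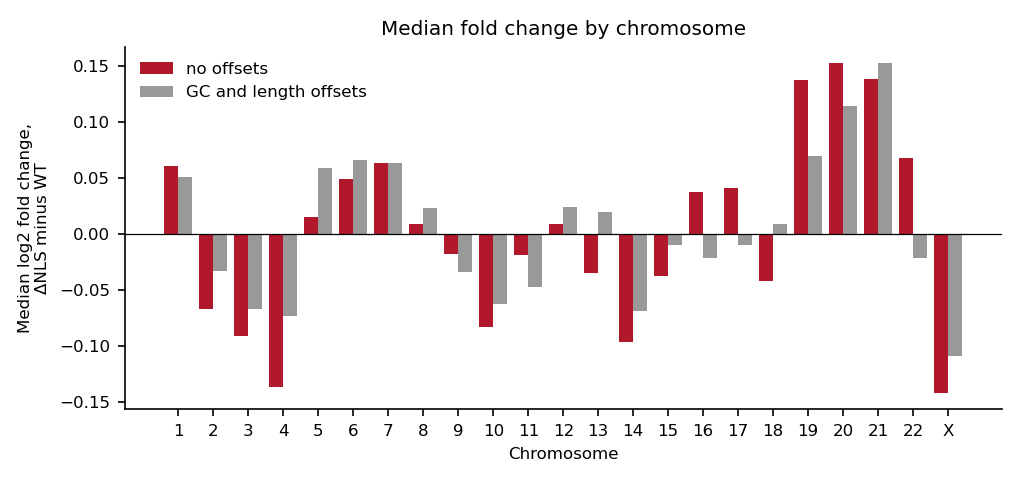
Median log2 fold change of ΔNLS over WT for the genes tested on each chromosome, from the fit without offsets (red) and with offsets for GC content and transcript length (grey). Chromosomes 19, 20 and 21 are highest and X and 4 lowest without offsets; with them the medians of 13, 16, 17, 18 and 22 change sign, while those of 20 and X keep theirs.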

How the data were processed

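RNA was polyA-selected and sequenced by a commercial provider. According to the study's methods, the authors trimmed reads with TrimGalore, aligned them to GRCh38 with STAR and counted them per gene with featureCounts without using strand; the labels name hg38 and DESeq2. The deposited values are raw counts for 61552 genes, of which 61399 IDs matched GENCODE 44, whose symbols and coordinates were used. Reads of overlapping, antisense or near-identical genes cannot be told apart.

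From the counts, the 3 ΔNLS and 3 WT libraries were compared with edgeR 4.0.16 in R 4.3.3 (TMM scaling, filterByExpr, robust quasi-likelihood test), with Benjamini-Hochberg adjustment over all 15805 genes and a threshold of 0.05. CPM of the line libraries are TMM-scaled over the 6 libraries, and CPM of the EGF libraries over all 9. Line and EGF values set side by side in text and figures therefore come from different scalings. Only the shares of genes nearer to WT or ΔNLS used a common scale over the 9. Lists were described by counts and medians with no set test. Gene lists and the comparison were chosen with earlier results of these data known. Genes named are EGFR and its relatives, SNX1, SNX2, reported targets, the 12 largest rises and falls (called, protein-coding, no overlap between groups, mean CPM of 1 or more), the 6 largest CPM changes each way beyond a log2 fold change of 1, up to 3 members per list and direction, and the most abundant member not called; NUSAP1 and the marker genes were named after their values were seen. A floor of 3 counts was used for genes at or near 0. Replicates of a group all differed beyond sampling noise (chi-square per degree of freedom 2.6 to 17.5). The scripts were tested on simulated data. Alternatives included DESeq2 1.42.0, other scalings and filters, offsets for GC and length, a replicate block and leaving out each library. Some genes that this rule picks are not reported here.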

Additional observations from a re-analysis of the deposited data

How the results depend on the processing

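The direction of all 194 named genes that passed the test was kept wherever the 16 alternatives gave a value, and 173 of them passed under every one; 21 lost the call at least once, among them SNX2, FAS, USP18, HSP90AB1 and NDUFV1. Of 33 named genes that did not pass, 18 passed under at least 1 alternative. The number of genes called was 5908 with DESeq2, 7087 with GC and length offsets and 5191 to 6559 when 1 library was left out. Requiring at least 10 counts in every library left 384 genes called and more than doubled in ΔNLS in place of 589, fewer genes being tested. The lowest window median was -0.41 with 20 Mb windows and -0.26 with GC and length offsets in place of -0.33. Replicate numbers did not pair the libraries (correlation of deviations between same-numbered libraries -0.09, -0.11 and -0.02); with a replicate block 5766 genes were called, 2827 higher and 2939 lower. The count of ribosomal proteins called ran from 8 to 47 as single libraries were left out, and NRF2 genes called went from 14 to 7 with the block; the cause was not tested. Genes with too few counts to be tested, such as NOS2 and ERBB4, could not be compared at this depth.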
